A study of Mus musculus with 30 samples.

Results

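A set of 10 genes listed as markers of cardiac fibroblast identity and activation was followed in left ventricles of mice from a peptide study and an antibody study. They were chosen by symbol, as Fap, Postn, Pdgfra, Tcf21, Dcn, Lum, Itga1, Fgfr1, Tgfb1 and Tgfbr2, and all 10 were found, of 49671 genes in the peptide table and 55263 genes in the antibody table. Every one of the 10 had counts in all 30 hearts and passed the filter of a mean of 10 counts per heart in both studies.

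All mice were male wild type C57BL6J. By the labels they were 12 weeks old when the peptide or the diet began, while the study's own text allows somewhat younger mice for the peptide. In the peptide study, 7 mice received daily intraperitoneal Aβ42 (recombinant human amyloid beta peptide) and 7 received the scrambled peptide ScrAβ42 for 4 weeks. The deposited labels give the dose as 1 mg per day, while the study's own text gives micrograms. In the antibody study, 8 mice received 3D6, an Aβ42 neutralising antibody, and 8 a control antibody of the IgG2a isotype, at 0.75 mg/kg weekly for 4 months. The study's methods put these mice on a high fat diet, whereas the deposited design text says that they had been given Aβ42, and the difference could not be settled here. The comparisons ask whether raising or neutralising Aβ42 moved these genes in the ventricle. Each library is labelled as a separate mouse.

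Fibroblasts of the ventricle make and maintain the collagen scaffold between the cardiomyocytes. Resting fibroblasts are marked by the PDGF receptor alpha (Pdgfra) and the transcription factor Tcf21, and secrete the small leucine-rich proteoglycans decorin (Dcn) and lumican (Lum), which bind collagen fibrils. On injury, TGF-β (Tgfb1), acting through its type II receptor (Tgfbr2), is a main signal that drives them into an activated state marked by periostin (Postn), a matricellular protein, and fibroblast activation protein (Fap), a membrane serine protease. Fgfr1 is a receptor for fibroblast growth factors that is not limited to fibroblasts, and Itga1 is the alpha chain of a collagen-binding integrin that other cells of the vessel wall also carry. In these data 2 of the 10 did not follow the label of the list in the peptide study: over 14 hearts, Fap had a Pearson's r (on log2 CPM less group means) of -0.36 and Itga1 one of -0.50 with the mean of 14 other fibroblast identity genes. Over 16 hearts of the antibody study that r was -0.11 for Pdgfra, 0.11 for Itga1, 0.12 for Fap and 0.14 for Tgfbr2. For the other members it ran there from 0.40 (Tcf21) to 0.60 (Tgfb1). Of these, Tcf21 alone had its highest r with that list among the lists compared. Fgfr1 (0.63) and Tgfb1 (0.61) had theirs with macrophage markers and Dcn (0.65) with blood markers. Postn (0.84) and Lum (0.66) had theirs with other activation genes. In bulk tissue, fewer fibroblasts and less RNA per fibroblast cannot be told apart.

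Total counts ran from 4478991 to 6015767 per heart in the peptide study and from 6397192 to 8310478 in the antibody study. Cardiomyocyte transcripts were abundant in every library: Myh6, the alpha myosin heavy chain, lay between 23727 and 44473 counts per 1000000 (CPM) in the peptide study. Markers of the atrium were present in several hearts labelled left ventricle. Their sum over 5 genes (Sln, Myl7, Myl4, Bmp10 and Mybphl) ran from 12.4 to 8417 CPM with Aβ42 and from 3.82 to 3665 CPM with ScrAβ42, with medians of 1158 and 10.5 CPM. It ran from 1.06 to 670.3 CPM with 3D6 and from 0.825 to 2785 CPM with the control antibody in the antibody study, with medians of 98.8 and 2.89 CPM. Of the atrial genes, Sln was at 0 in 1 of 14 hearts and Bmp10 in 4 of 14 of the peptide study, and each was at 0 in 7 of 16 hearts of the antibody study.

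The level of each gene was set against its length, as CPM per kb of its most counted transcript. That transcript was taken from the antibody study for both, since the peptide study has counts per gene only. Where a gene's counts divide between transcripts of different length, as in Tgfbr2, its level and its place in the order are approximate. Decorin stood far above the others in both studies, at 379 ± 133 CPM per kb (SD, n = 14) in the peptide study and 186 ± 37.5 CPM per kb (SD, n = 16) in the antibody study. Fap was lowest in both, at 1.19 ± 0.298 and 0.736 ± 0.260 CPM per kb, resting on 11 to 26 counts per heart in the peptide study and 3 to 21 in the antibody study.

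In the peptide study the order by mean level per kb was Dcn, Lum, Postn, Fgfr1, Tgfb1, Tgfbr2, Pdgfra, Tcf21, Itga1 and Fap. Only Dcn and Lum, and Tcf21 and Itga1, had ranges that did not overlap with the next gene down the list. Postn exceeded Fgfr1 in just 4 of 14 hearts although its mean was higher, since its mean rested on a few high hearts. In the antibody study the order was Dcn, Tgfb1, Lum, Fgfr1, Postn, Itga1, Tgfbr2, Pdgfra, Tcf21 and Fap, and Tcf21 lay above Fap in 16 of 16 hearts. Tgfb1 and Lum, and Pdgfra and Tcf21, were the closest neighbours there, each with the first gene higher in 9 of 16 hearts. Itga1 read 21.7 and 21.1 CPM in the groups of the peptide study and 54.6 and 60.2 CPM in those of the antibody study, but the tables were normalized separately and this difference was not tested.

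**Figure D1:**
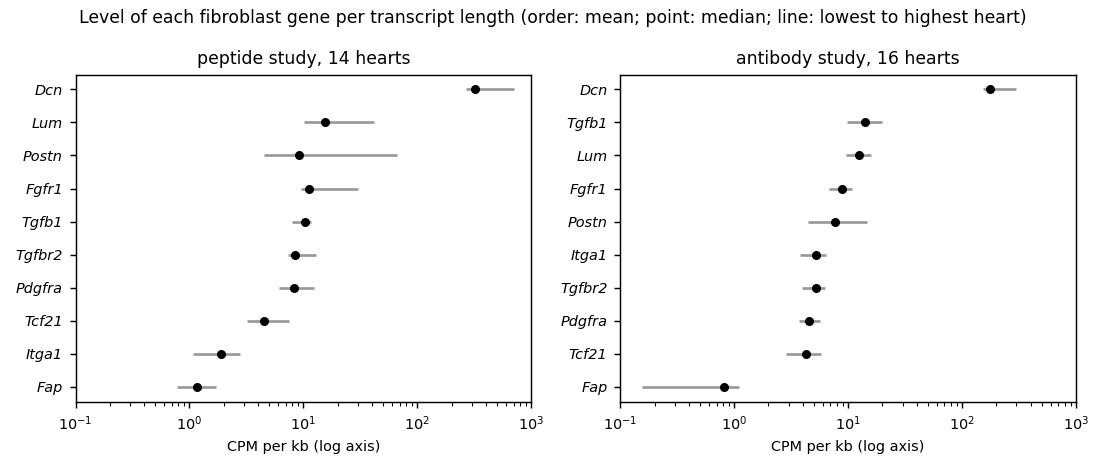
Level of each of the 10 genes in CPM per kb of its most counted transcript, on a log axis, for 14 hearts of the peptide study and 16 hearts of the antibody study. Genes are ordered by mean, points are medians and lines run from the lowest to the highest heart, with Dcn at the top and Fap at the bottom of both panels.

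In the peptide study, none of the 10 genes passed the test between Aβ42 and ScrAβ42 (edgeR quasi-likelihood test with Benjamini-Hochberg adjustment over 11985 genes). The background was 0% of all genes called at an adjusted p under 0.05. At an unadjusted p under 0.05 it was 6.51% of all genes (780 genes), against 0 of the 10, and without ScrAbeta42_3448 it was 1266 genes, again with 0 of the 10. limma-voom called 0 genes and DESeq2 called 12 genes, with none of the 10 among them. The fitted value was higher with Aβ42 for 8 of the 10, while 50.5% of all genes were higher, and the median log2 fold change of the 10 was 0.03 against 0.00 over all genes. That count of 8 was 3 without Abeta42_3457, 5 without ScrAbeta42_3441, 4 without either ScrAbeta42_3447 or ScrAbeta42_3449, and 1 with the atrial score as a covariate.

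Among the identity genes, Pdgfra ran from 39.9 to 72.1 CPM with Aβ42 (median 54.1) and from 41.1 to 81.6 CPM with ScrAβ42 (median 54.1). The ranges overlapped, with the highest ScrAβ42 heart above all 7 Aβ42 hearts, and the log2 fold change was -0.01 (SE 0.15, 95% interval -0.33 to 0.32, edgeR adjusted p = 0.996). Tcf21 ran from 4.55 to 8.65 CPM with Aβ42 (median 6.37) and from 4.07 to 9.55 CPM with ScrAβ42 (median 5.48), a log2 fold change of 0.13 (SE 0.21, 95% interval -0.31 to 0.56, edgeR adjusted p = 0.947) that was 0.02 without Abeta42_3457 and 0.30 without ScrAbeta42_3448.

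Among the proteoglycans, Dcn ran from 465 to 1084 CPM with Aβ42 (median 572) and from 471 to 1231 CPM with ScrAβ42 (median 558), with a log2 fold change of 0.04 (SE 0.23, 95% interval -0.45 to 0.53, edgeR adjusted p = 0.986). Without Abeta42_3457 it was -0.12 and without ScrAbeta42_3448 0.26. Lum ran from 25.8 to 101 CPM (median 31.8) and from 24.6 to 95.5 CPM (median 44.4), with a log2 fold change of 0.02 (SE 0.34, 95% interval -0.71 to 0.74), or -0.32 and 0.31 without the same hearts in turn. These genes are neighbours on chromosome 10 of GRCm38, Dcn at chr10:97479609-97518143 and Lum at chr10:97565128-97572703, both on the + strand and 46984 bases apart.

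Periostin varied most between hearts, with a coefficient of variation of 123% with Aβ42 and 128% with ScrAβ42. Its values were 17.9, 20.0, 25.1, 27.8, 31.5, 57.5 and 207 CPM with Aβ42, and 13.9, 13.9, 19.8, 28.6, 32.2, 64.2 and 207 CPM with ScrAβ42. One heart of each group therefore carried more than 3 times the periostin of any other, and the means of 55.2 ± 68.1 (SD, n = 7) and 54.3 ± 69.6 CPM (SD, n = 7) rest on them. The log2 fold change of 0.03 (SE 0.68, 95% interval -1.42 to 1.48, edgeR adjusted p = 0.995) became -0.87 without the high Aβ42 heart (labelled Abeta42_3457) and 0.96 without the high ScrAβ42 heart (labelled ScrAbeta42_3448). Neither of these values passed the test.

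Fap, the other activation gene, did not share this shape. It ran from 2.13 to 4.55 CPM with Aβ42 (median 2.78) and from 2.52 to 4.67 CPM with ScrAβ42 (median 3.52), and 5 of 7 Aβ42 hearts lay below the ScrAβ42 median. Its log2 fold change of -0.25 (SE 0.20, 95% interval -0.68 to 0.17) did not pass the test (edgeR adjusted p = 0.865), and with the atrial score as a covariate it was -0.09.

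The TGF-β ligand was the steadiest of the 10, with coefficients of variation of 9.60% with Aβ42 and 11.9% with ScrAβ42. Tgfb1 ran from 18.9 to 25.4 CPM with Aβ42 and from 17.4 to 23.7 CPM with ScrAβ42, a log2 fold change of 0.09 (SE 0.09, 95% interval -0.10 to 0.28, edgeR adjusted p = 0.905). It was 0.047 without ScrAbeta42_3447. Tgfbr2, its receptor, ran from 61.8 to 104 CPM and from 58.9 to 105 CPM, a log2 fold change of 0.02 (SE 0.14, 95% interval -0.27 to 0.32). Without Abeta42_3457 that of Tgfbr2 was -0.086, and without ScrAbeta42_3448 it was 0.14. Neither of the 95% intervals reaches beyond 0.32 on the log2 scale.

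Fgfr1 ran from 36.1 to 114 CPM with Aβ42 (median 43.4) and from 39.5 to 83.4 CPM with ScrAβ42 (median 42.1), with a log2 fold change of 0.15 (SE 0.25, 95% interval -0.39 to 0.69), which was -0.13 without Abeta42_3457 and 0.31 without ScrAbeta42_3448. Itga1 ran from 11.8 to 30.6 CPM and from 17.3 to 25.8 CPM, with a log2 fold change of 0.04 (SE 0.19, 95% interval -0.36 to 0.43). All 7 ScrAβ42 values of Itga1 lay within the range of the Aβ42 group. Exact two-sided permutation tests of single genes on log2 CPM, 20 in all over both studies and unadjusted, gave p from 0.194 for Fap to 0.985 for Lum in the peptide study, where 0.000583 is the smallest p that 7 against 7 allows.

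**Figure D2:**
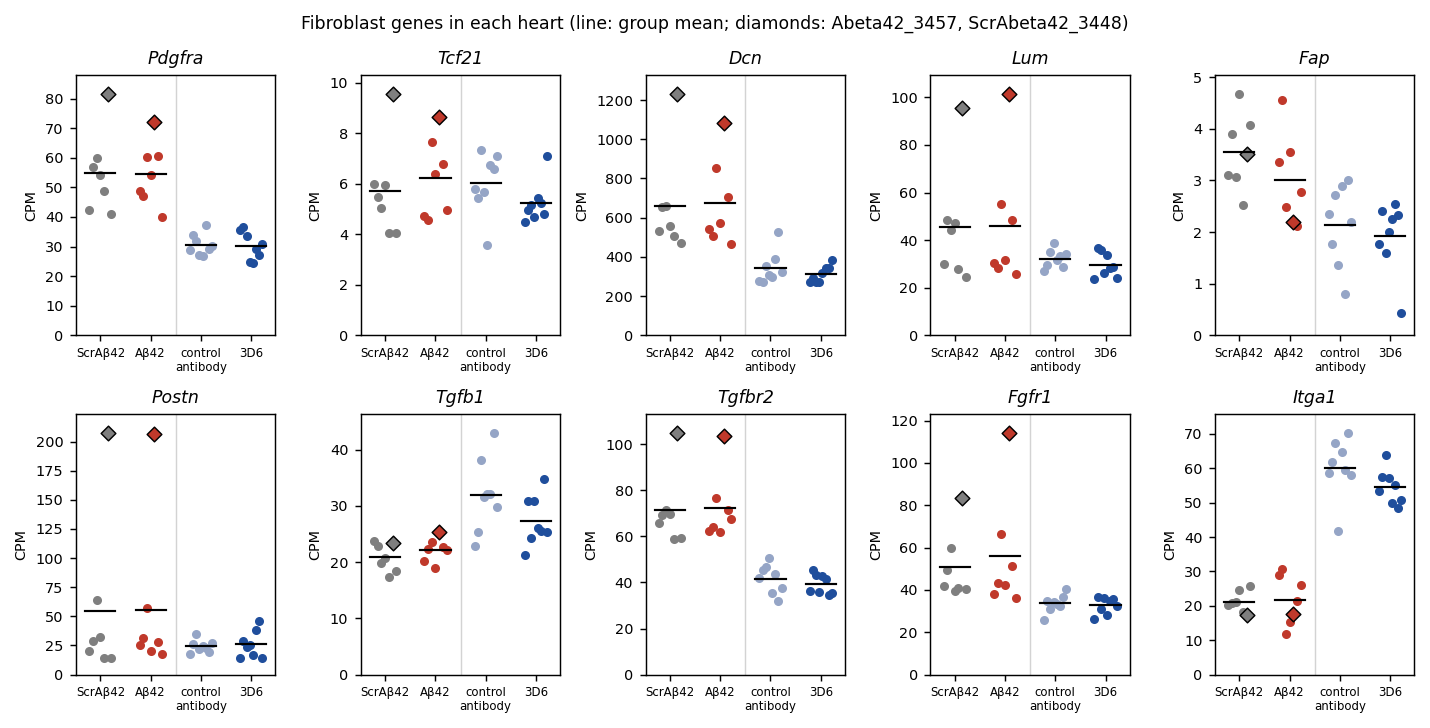
CPM of each gene in each heart, with the groups on the horizontal axis, 1 point per heart and a line at each group mean. The diamonds are Abeta42_3457 and ScrAbeta42_3448, which are the highest hearts of their groups for Postn at 207 CPM each and lie within the other hearts for Fap and Itga1.

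Abeta42_3457 and ScrAbeta42_3448, which stand out for periostin, were set against the other 12 hearts of the peptide study as a description, since they were picked for their values. Both were above all 12 for 7 of the 10 genes: Postn, Lum, Dcn, Fgfr1, Tcf21, Tgfbr2 and Pdgfra. Of all 11985 genes tested, 10.5% had both hearts above the other 12 and 10.2% had both below.

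Relative to the median of the other 12 hearts, Abeta42_3457 and ScrAbeta42_3448 had 7.81 and 7.83 times the Postn level, and 3.27 and 3.08 times the Lum level. Fgfr1 stood at 2.71 and 1.98 times, and Dcn at 1.97 and 2.24 times. Tcf21 stood at 1.65 and 1.82 times, Tgfbr2 at 1.56 and 1.57 times, and Pdgfra at 1.40 and 1.59 times that median. Among these 7, periostin, for which these hearts were picked, departed most. Lumican came next, while Tcf21, Tgfbr2 and Pdgfra departed least. Tgfb1 stood at 1.19 and 1.09 times, above the other 12 hearts in Abeta42_3457 and among them in ScrAbeta42_3448. Fap (0.680 and 1.09 times) and Itga1 (0.829 and 0.813 times) lay among the other hearts.

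Genes of related lists stood apart in the same hearts. Both hearts were above the other 12 for 11 of 14 other fibroblast identity genes tested, for 8 of 13 other activation genes, for 4 of 7 other small leucine-rich proteoglycans and for 9 of 26 other genes of the TGF-β pathway, but for 0 of 15 ligands, partners and relatives of the receptors. The summed identity list reached 5231 CPM in Abeta42_3457 and 6626 CPM in ScrAbeta42_3448, against group medians of 2370 and 2277 CPM. The summed activation list reached 2878 and 1556 CPM, against medians of 423 and 395 CPM. Of the 2878 CPM in Abeta42_3457, 1104 CPM were Acta2, which smooth muscle also makes, and the smooth muscle markers Myh11 (750 CPM, next heart 160) and Tagln (37.8 CPM, next 6.65) were highest in that heart too.

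Some markers of other cells also stood apart in 1 or both of these hearts. Single markers with both hearts above the other 12 were few, at 1 of 6 for macrophages. They were 0 of 5 for the atrium, 0 of 4 for adipose tissue, 0 of 5 for mesothelium and epicardium and 0 of 5 for blood. The cardiomyocyte sum was 41010 CPM in Abeta42_3457 and 48674 CPM in ScrAbeta42_3448, the lowest of each group, and both were below the other 12 hearts for 4 of 6 cardiomyocyte markers. The atrial sum was 8417 and 3665 CPM, the highest of each group, and the adipose sum (Adipoq, Plin1, Cidec, Cfd and Lep) was 387 and 84.4 CPM against medians of 5.22 and 0.874 CPM. The macrophage sum in ScrAbeta42_3448 was 326 CPM and its blood sum 15945 CPM, each the highest of the 14 hearts. The mitochondrial share of counts was 12.9% in Abeta42_3457 and 13.8% in ScrAbeta42_3448, the lowest of the 14 hearts. The mesothelial and epicardial sum of 176 CPM in Abeta42_3457 was the highest of the 14, both hearts were below the other 12 for 2 of 6 endothelial markers, and the summed pericyte and smooth muscle list (1309 and 995 CPM) lay among the other hearts.

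Over 14 hearts the mean of the atrial markers had r = 0.70 with Postn and 0.81 with Dcn, and without Abeta42_3457 and ScrAbeta42_3448 r = 0.33 and 0.59. The hearts Abeta42_3455 and Abeta42_3458, with atrial sums of 4707 and 4357 CPM, had 57.5 and 27.8 CPM of Postn and 854 and 705 CPM of Dcn. ScrAbeta42_3443 had 64.2 CPM of Postn with an atrial sum of 10.5 CPM. The part of these markers in the levels of the 10 genes was not tested beyond a fit with the atrial score as a covariate. The atrial sum had medians of 1158 CPM with Aβ42 and 10.5 CPM with ScrAβ42, so such a fit cannot fully separate the score from the treatment. In that fit, 7 of the 10 genes changed the sign of their log2 fold change, with Postn at -0.99, Lum at -0.62, Dcn at -0.36 and Tgfbr2 at -0.22. Lum, Dcn and Tgfbr2 had unadjusted p-values of 0.0204, 0.0295 and 0.0478 there, where 7.48% of all genes had an unadjusted p under 0.05, and none of the 10 passed the edgeR test (lowest adjusted p = 0.549).

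**Figure D3:**
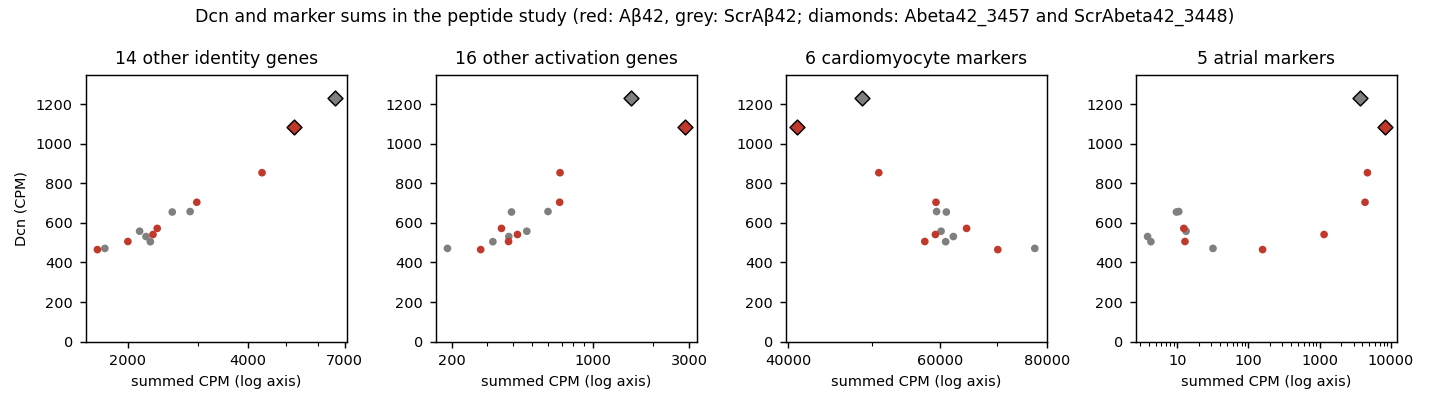
Dcn in CPM against the summed CPM (log axis) of 14 other identity genes, 16 other activation genes, 6 cardiomyocyte markers and 5 atrial markers in the 14 hearts of the peptide study, 1 point per heart, red for Aβ42 and grey for ScrAβ42. Diamonds mark Abeta42_3457 and ScrAbeta42_3448, with Dcn of 1084 and 1231 CPM, which have the highest identity sums and the lowest cardiomyocyte sum of their group.

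Of the 10 genes, 8 varied together in the peptide study, while Fap and Itga1 had a negative r with each of the 8. Pearson's r was taken on log2 CPM after subtracting group means, as a description, over hearts that share a library, its depth and its normalization between genes. In the peptide study (14 hearts) the 45 pairs had a median r of 0.69 and 28 pairs were above 0.5, while the lowest r was -0.63, between Itga1 and Tcf21. The 8 genes other than Fap and Itga1, a choice made after seeing the values, had pairwise r from 0.44 to 0.96 with a median of 0.89. Without Abeta42_3457 and ScrAbeta42_3448 (12 hearts) the median over 45 pairs was 0.50, with 22 pairs above 0.5, and the 8 genes had r from 0.11, between Pdgfra and Tgfb1, to 0.92 with a median of 0.75. Over 16 hearts of the antibody study the median over 45 pairs was 0.11, with 5 pairs above 0.5 and the highest at 0.63, between Lum and Tgfbr2, and that of the 8 genes was 0.12.

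**Figure D4:**
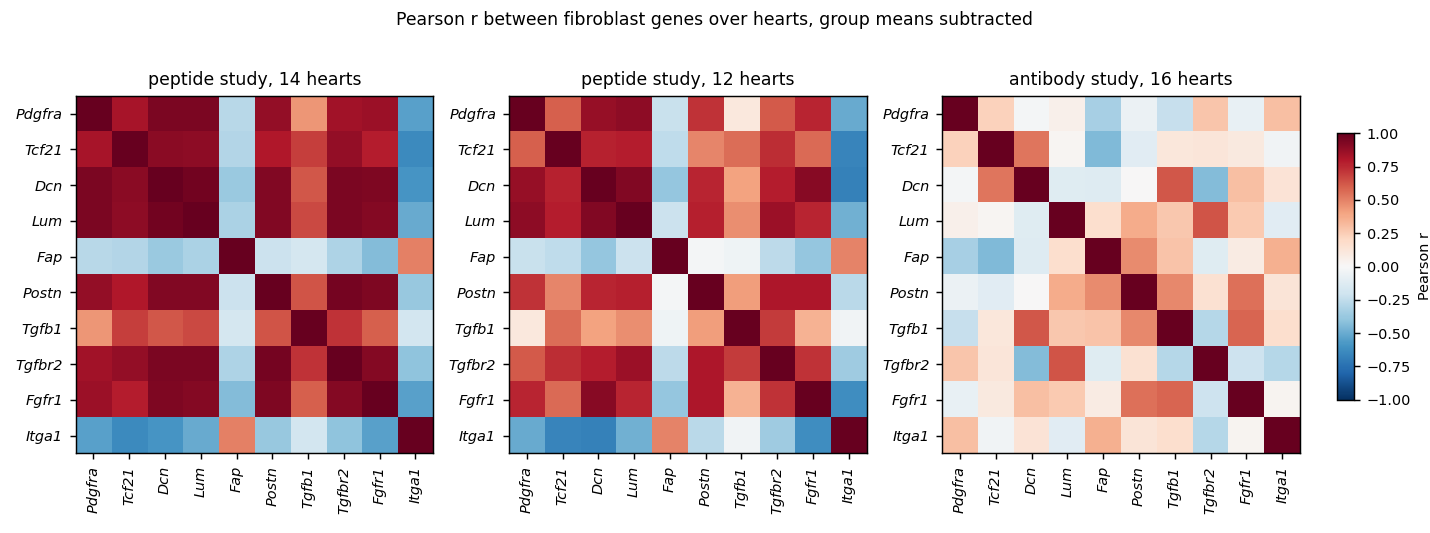
Pearson r between each pair of the 10 genes over hearts, from -1 in blue to 1 in red, after subtracting group means from log2 CPM. The 14 hearts of the peptide study have a block of high r outside Fap and Itga1, which is weaker in the 12 hearts left without Abeta42_3457 and ScrAbeta42_3448, and the 16 hearts of the antibody study have a median r of 0.11.

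Postn followed the mean of the other activation genes, with r = 0.99 over 14 hearts of the peptide study and 0.84 over 16 hearts of the antibody study. Dcn had r = 0.98 and 0.51 with the other identity genes, and in the antibody study 0.65 with the blood markers. In the peptide study other lists came close. Postn had r = 0.97 with the other TGF-β pathway genes, and Dcn 0.97 with the other small leucine-rich proteoglycans. With the cardiomyocyte markers they had -0.89 and -0.88 there. Pdgfra had r = 0.92 and -0.11 with the other identity genes. In the peptide study, Lrp1, Mmp2, Ccdc80, Slc7a2 and Sfrp1 were the genes most like Pdgfra outside the 10, with r from 0.94 to 0.96. Those most like it in the antibody study were Zfp36l1, Nipbl, Epg5, Fam222b and Glg1, with r from 0.84 to 0.87, and 0 genes were in the first 50 of both studies. Gas1, Mgp, Tmem176b, Ccdc80 and Lrp1 were most like Dcn in the peptide study (r from 0.98 to 0.99), and Slco2b1, Gsn, Zrsr2, Zbtb20 and Cd47 in the antibody study (r from 0.91 to 0.95). For Dcn, 2 genes, Gsn and Apoe, were in the first 50 of both.

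As a description, the bases upstream of the start sites are shown for 4 of the 7 genes that stood high in the same hearts. These 4 have a promoter in the RefSeq table of GRCm38.p6, which held 6 of the 10 genes. The part of promoter sequence in those levels was not tested. Each line gives the 100 bases before the start site on the gene's strand, 5′ to 3′, and capitals mark TATAAA, the only searched motif in these stretches. Postn has a further start site in that table, and the one nearest the start of the Ensembl gene is shown. The positions are chr3:54361007-54361106 (+) for Postn, chr5:75152151-75152250 (+) for Pdgfra, chr10:22820144-22820243 (-) for Tcf21 and chr9:116175364-116175463 (-) for Tgfbr2.
Postn: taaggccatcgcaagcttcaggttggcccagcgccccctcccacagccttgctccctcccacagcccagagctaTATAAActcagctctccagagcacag
Pdgfra: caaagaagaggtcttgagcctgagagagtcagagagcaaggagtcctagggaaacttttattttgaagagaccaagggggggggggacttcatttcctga
Tcf21: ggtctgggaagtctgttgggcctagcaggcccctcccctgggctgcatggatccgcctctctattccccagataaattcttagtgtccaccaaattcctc
Tgfbr2: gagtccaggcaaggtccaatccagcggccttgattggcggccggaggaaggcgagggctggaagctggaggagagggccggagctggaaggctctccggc

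Windows from 250 bases before to 50 bases after the start site were searched on both strands in the 7 windows of these 6 genes. TATAAA, the TATA box, occurred once, in Postn, with its first base at -26 from the start site, and 13.6% of all 32851 windows in the table hold it. The AP-1 motif TGANTCA was in none of the 7 windows (7.81% of all windows), nor was the TEAD motif GGAATG (14.7% of all windows). The E-box CANNTG, the letters that Tcf21 and other basic helix-loop-helix factors bind, was in the windows of Pdgfra, Itga1 and Tgfbr2, with 72.3% of all windows holding it. The motifs do not overlap each other in these windows, and a match is a description of letters, not of binding.

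Between 3D6 and control antibody none of the 10 genes passed the test either (edgeR, 12146 genes tested). The background was 0% of all genes at an adjusted p under 0.05 and 3.66% of all genes (444 genes) at an unadjusted p under 0.05, and 0 of the 10 passed at either. That count of genes was 256 without 3D6 mouse 4 and 765 without control mouse 8. DESeq2 and limma-voom called 0 genes. The fitted value was lower with 3D6 for 9 of the 10, all but Postn, while 52.8% of all genes were lower, and the median log2 fold change of the 10 was -0.13 against -0.01 over all genes.

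Tgfb1 had the smallest p of the 10. Its values ran from 21.3 to 34.7 CPM with 3D6 (median 25.8) and from 22.8 to 42.9 CPM with control antibody (median 31.8), and 1 of 8 3D6 hearts lay above the control median. The log2 fold change was -0.22 (SE 0.13, 95% interval -0.48 to 0.04, edgeR unadjusted p = 0.0961, adjusted p = 0.944), and the exact permutation p was 0.133. The log2 fold change was -0.14 without control mouse 22, -0.27 without control mouse 3 (unadjusted p = 0.0338) or 3D6 mouse 21 (unadjusted p = 0.042), and -0.10 with the mitochondrial share of counts as a covariate. Its receptor Tgfbr2 ran from 34.4 to 45.2 CPM and from 32.03 to 50.4 CPM, with a log2 fold change of -0.08 (SE 0.10, 95% interval -0.29 to 0.12) that was -0.03 without control mouse 15.

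The identity genes overlapped between the groups. Tcf21 ran from 4.49 to 7.11 CPM with 3D6 (median 5.05) and from 3.57 to 7.33 CPM with control antibody (median 6.18), a log2 fold change of -0.20 (SE 0.14, 95% interval -0.50 to 0.10), and 1 of 8 3D6 hearts lay above the control median. Pdgfra ran from 24.4 to 36.6 CPM and from 26.7 to 37.3 CPM, a log2 fold change of -0.02 (SE 0.10, 95% interval -0.23 to 0.19).

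Dcn ran from 271 to 384 CPM with 3D6 (median 305) and from 270 to 525 CPM with control antibody (median 316), a log2 fold change of -0.14 (SE 0.13, 95% interval -0.41 to 0.13), or -0.19 without 3D6 mouse 24. Its highest value was that of control mouse 22, and without this heart the log2 fold change was -0.02. With the mitochondrial share of counts as a covariate, whose group medians were 33.3% with 3D6 and 31.3% with control antibody, it was -0.0065. That heart was also the highest of its group for Tgfb1 (42.9 CPM), Itga1 (70.2 CPM) and Fap (3.00 CPM) and the lowest for Tgfbr2 (32.03 CPM), and it had the highest blood and endothelial marker sums (2701 and 932 CPM) and the lowest mitochondrial share of counts (26.0%) of the 16 hearts. Lum ran from 23.6 to 36.6 CPM and from 27.2 to 38.8 CPM, a log2 fold change of -0.12 (SE 0.11, 95% interval -0.35 to 0.10) that was -0.07 without control mouse 15.

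Neither activation gene passed the test. Postn ran from 13.8 to 45.6 CPM with 3D6 (median 24.6) and from 17.7 to 34.9 CPM with control antibody (median 23.4), a log2 fold change of 0.10 (SE 0.22, 95% interval -0.36 to 0.56) that was -0.06 without 3D6 mouse 21 and 0.19 without control mouse 11. No heart of this study reached the 207 CPM of the peptide study's highest hearts, though the tables were normalized separately. Fap ran from 0.426 to 2.54 CPM and from 0.8003 to 3.00 CPM, a log2 fold change of -0.16 (SE 0.29, 95% interval -0.76 to 0.44), and its 3 counts in 3D6 mouse 24 are the lowest of the 10 genes in any heart. Without this heart the log2 fold change of Fap was -0.0094, and with protein-coding transcripts only, in all hearts, it was -0.021.

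Itga1 ran from 48.5 to 63.9 CPM with 3D6 (median 54.3) and from 41.8 to 70.2 CPM with control antibody (median 60.6), a log2 fold change of -0.14 (SE 0.09, 95% interval -0.34 to 0.06). Control mouse 15 had the lowest Itga1 (41.8 CPM) and the highest Lum (38.8 CPM) and Tgfbr2 (50.4 CPM) of the 16 hearts, and also the highest atrial sum, 2785 CPM. Fgfr1 ran from 26.3 to 36.6 CPM and from 25.8 to 40.6 CPM, a log2 fold change of -0.04 (SE 0.09, 95% interval -0.24 to 0.15). With the atrial score as a covariate, Postn alone changed sign, to -0.06. With the mitochondrial share of counts as a covariate, Fgfr1 alone changed sign, to 0.01.

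**Figure D5:**
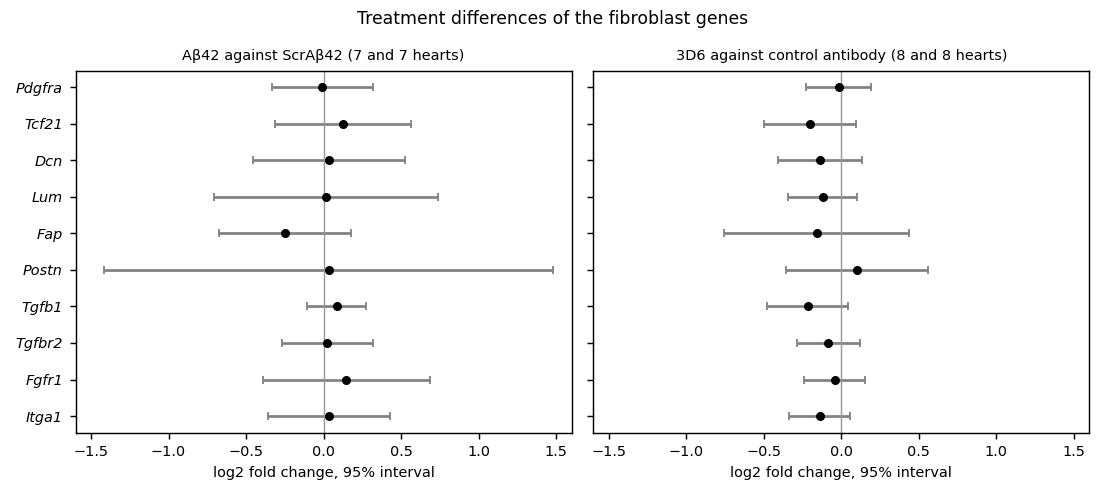
Log2 fold change of each gene with its 95% interval, for Aβ42 against ScrAβ42 (7 and 7 hearts) and for 3D6 against control antibody (8 and 8 hearts). Every interval includes 0, and the interval of Postn in the peptide study, from -1.42 to 1.48, is the widest of the 20.

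The antibody table held single transcripts, so the makeup of each gene could be read. Lum has 1 transcript in the annotation. In Pdgfra, Tcf21, Itga1 and Tgfb1 the most counted transcript took 91.7%, 95.6%, 98.5% and 98.6% of the gene's counts. Counts were more divided in Postn, Dcn, Tgfbr2, Fgfr1 and Fap, where it took 72.8%, 71.0%, 63.4%, 37.1% and 49.1%. Exact two-sided permutation tests of the share of the most counted transcript, 9 in all and unadjusted, gave p from 0.243 for Tcf21 to 0.970 for Dcn.

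The internal coding exons that differ between counted transcripts are shown for Postn and Tgfbr2, since periostin exons near the C terminus are known to be spliced in and out and the Tgfbr2 exon lies in the stretch coding for the receptor's extracellular side. All 3 exons have a length that is a multiple of 3 and so keep the reading frame. The Postn exons are 81 bases at chr3:54380412-54380492 and 84 bases at chr3:54385671-54385754, and the Tgfbr2 exon is 75 bases at chr9:116158271-116158345, read on the - strand of GRCm38.
Postn exon of 81 bases: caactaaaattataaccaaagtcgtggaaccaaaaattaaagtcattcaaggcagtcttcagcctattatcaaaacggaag
Postn exon of 84 bases: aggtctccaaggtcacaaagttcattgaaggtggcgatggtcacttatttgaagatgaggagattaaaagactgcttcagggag
Tgfbr2 exon of 75 bases: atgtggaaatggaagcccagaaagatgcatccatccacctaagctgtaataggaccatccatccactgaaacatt

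Most periostin counts fell on Postn-204, which lacks both exons. Transcripts with the 81-base exon took 9.998 ± 7.48% (SD, n = 8) of the counts of transcripts spanning it with 3D6 and 8.20 ± 7.04% (SD, n = 8) with control antibody. For the 84-base exon the shares were 10.7 ± 10.01% (SD, n = 8) and 9.15 ± 8.49% (SD, n = 8). The hearts ranged from 0% to 25.6% in these shares, so the group differences of under 2 points are smaller than the spread.

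Transcripts with the 75-base exon of Tgfbr2 took 63.4 ± 10.4% (SD, n = 8) of its counts with 3D6 and 65.7 ± 14.2% (SD, n = 8) with control antibody. The Tgfbr2-202 transcript that holds the exon is also the longer, 8092 against 3476 bases, and per length it took 43.5% and 47.2%. In Fgfr1, an exon of 267 bases at chr8:25555508-25555774, in the stretch coding for the first immunoglobulin-like domain, was in 43.0 ± 7.97% (SD, n = 8) and 47.9 ± 15.5% (SD, n = 8) of the spanning counts. Such shares are the authors' estimates of how reads divide between transcripts.

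Other genes of the same roles gave no call either. The counts of direction below stand beside the shares over all genes tested. These were 50.5% higher with Aβ42, and 52.8% lower and 47.2% higher with 3D6. Of 14 other identity genes, 9 had a higher fitted value with Aβ42 and 13 a lower one with 3D6, and 0 passed in either study. Dpep1, a dipeptidase, had a log2 fold change of 0.32 (SE 0.14, edgeR adjusted p = 0.739) with Aβ42 and -0.21 (SE 0.15, edgeR adjusted p = 0.944) with 3D6, the latter -0.06 without control mouse 22. Thy1, a surface glycoprotein, had -0.20 (SE 0.18), or -0.09 without ScrAbeta42_3448, and -0.25 (SE 0.14).

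Of 13 other activation genes tested in the peptide study, 8 were fitted higher, and of 12 in the antibody study 9 were fitted lower, with 0 passing. Cilp, a matrix protein of activated fibroblasts, averaged 12.9 CPM with Aβ42 and 38.9 CPM with ScrAβ42 (log2 fold change -1.58, SE 0.70, edgeR adjusted p = 0.742). Its level was 165 CPM in ScrAbeta42_3448, without which the ScrAβ42 mean was 17.9 CPM and the log2 fold change -0.45. Acta2, smooth muscle actin, averaged 236 and 101 CPM (log2 fold change 1.22, SE 0.64, edgeR adjusted p = 0.775). Its level was 1104 CPM in Abeta42_3457, without which the Aβ42 mean was 91.5 CPM and the log2 fold change -0.15. The smooth muscle markers Myh11 and Tagln turned likewise without that heart, from 0.92 to -0.36 and from 1.38 to -0.22. Lox, the collagen cross-linking enzyme, averaged 18.6 and 13.2 CPM, with a log2 fold change of 0.49, or 0.27 without Abeta42_3457 and 0.75 without ScrAbeta42_3448. With 3D6, Meox1, a homeobox factor, had the smallest p of the list, at a log2 fold change of -0.29 (SE 0.17).

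Of 26 other TGF-β pathway genes in the peptide study, 18 were fitted higher, and of 25 in the antibody study 15 were fitted higher, with 0 passing. The signal transducer Smad2 had a log2 fold change of 0.25 (SE 0.09, edgeR adjusted p = 0.693) and the common partner Smad4 one of -0.16 (SE 0.06, edgeR adjusted p = 0.701) with Aβ42. Smad3 had one of 0.22 (SE 0.11, edgeR adjusted p = 0.944) and the endothelial type I receptor Acvrl1 one of -0.24 (SE 0.12) with 3D6, the latter -0.14 without control mouse 22.

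Among ligands and relatives of the receptors, 9 of 15 were fitted higher with Aβ42 and 7 of 13 lower with 3D6. The ligand Pdgfc averaged 3.32 and 1.51 CPM with Aβ42 and ScrAβ42 (log2 fold change 1.13, SE 0.52, edgeR adjusted p = 0.753, or 0.70 without Abeta42_3457), and Dpp4, the closest relative of Fap, 10.1 and 6.28 CPM (0.70, SE 0.35, edgeR adjusted p = 0.763). Fgf9 had a log2 fold change of -0.64 (SE 0.27). With 3D6, Fgf1, a ligand of Fgfr1, had one of 0.25 (SE 0.13, edgeR adjusted p = 0.944).

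Of 7 other small leucine-rich proteoglycans in the peptide study, 4 were fitted higher, with podocan (Podn) at 169 and 48.1 CPM (log2 fold change 1.81, SE 0.71, edgeR adjusted p = 0.708), which was 1.15 without Abeta42_3457. With 3D6, 3 of 5 were fitted lower, among them Podn at 15.5 and 23.7 CPM (log2 fold change -0.62, SE 0.54, turning to 0.44 without control mouse 15) and biglycan (Bgn) at 186 and 214 CPM (log2 fold change -0.20, SE 0.13, or -0.13 without 3D6 mouse 4).

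Markers of other cells gave no adjusted call in these comparisons. All 5 atrial, all 4 adipose and all 5 mesothelial and epicardial markers tested were fitted higher with Aβ42, and all 5 blood and all 5 skeletal muscle markers lower. Of these and the endothelial markers, Bmp10 of the atrium (log2 fold change 6.81, or 2.97 without Abeta42_3455), Emcn of the endothelium (0.34) and Plin1 of adipose tissue (2.66, or 0.94 without Abeta42_3457) had unadjusted p-values of 0.00242, 0.0234 and 0.0477 by edgeR, beside 6.51% of all genes under 0.05. With 3D6, all 6 endothelial markers were fitted lower (5 of 6 without control mouse 22). Pecam1 (log2 fold change -0.23, SE 0.09), Emcn (-0.25, SE 0.10) and the epicardial Wt1 (-0.45, SE 0.16) had unadjusted p-values of 0.0139, 0.0178 and 0.0112 by edgeR, beside 3.66% of all genes under 0.05. Of the pericyte and smooth muscle markers 6 of 7, and of the macrophage markers 5 of 6, were lower, while the cardiomyocyte markers split 3 and 3. The 4 atrial markers tested were fitted lower with 3D6 but all higher without control mouse 15, where Myl7 went from -1.09 to 2.89. The 5 blood markers were fitted lower but all higher without control mouse 22, where Hba-a1 went from -0.17 to 0.04. Of these markers, only the atrial ones entered a fit of the fibroblast genes with 3D6, as a covariate score. Among the genes followed, Postn alone changed sign there, to -0.06, and the others stayed lower. The part of the other markers in the lower fitted values of the fibroblast genes with 3D6 was not tested.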

How the data were processed

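Left ventricle RNA was made into stranded total RNA libraries and sequenced on a NovaSeq. The authors trimmed the reads, quantified them with Salmon on GENCODE vM24 (GRCm38) and tested with DESeq2. The table they deposited for the peptide study holds counts per gene as whole numbers, and 1 further value column that matched no labelled sample was not used. That of the antibody study holds estimated counts for 142647 transcripts, as the authors' program gave them. These were summed to genes with GENCODE vM21 and rounded, and transcripts it does not list, with 0.381% of the estimated counts, were left out. Salmon divides reads between similar transcripts by estimation.

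A gene entered the test where its mean was 10 counts or more. Each study was fitted alone with edgeR 4.0.16 (R 4.3.3; TMM factors, glmQLFit and glmQLFTest), adjusting by Benjamini-Hochberg over all genes tested. CPM are TMM-scaled, and log2 CPM carry a prior count of 2. DESeq2 1.42.0, limma-voom (limma 3.58.1), other scalings and filters, atrial and mitochondrial covariates and leaving out each heart were alternatives, and the functions were tested on simulated data, where DESeq2 made more false calls than the other tools. All 10 genes are named, and of each further list the 3 genes with the smallest p, from which examples are taken, and the 5 genes most like Pdgfra and Dcn. The 10 genes and the lists were chosen with earlier results of these data known. Replicates differed by more than sampling noise (lowest chi-square per degree of freedom 3.51 and 3.47). The counts per heart, 4478991 to 8310478 in total, limit the precision, and Fap had the fewest counts of the 10 genes.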

Additional observations from a re-analysis of the deposited data

Results flagged for a closer look

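Each of the 10 genes was looked at in each of the 4 groups for a heart whose gap to its nearest neighbour is large against the range of its group (Dixon's test at its 95% critical value, 0.568 for 7 and 0.526 for 8 hearts). It marked 13 of 40 groups, where chance marks about 1 in 20 of independent groups with normally distributed values. The 10 genes share their libraries, and their CPM were not tested for that distribution, so this rate need not hold here.

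In the Aβ42 group, Abeta42_3457 stood above the other 6 hearts for Postn (207 CPM, next heart 57.5), Lum (101 CPM, next 55.0), Fgfr1 (114 CPM, next 66.5) and Tgfbr2 (104 CPM, next 76.8). In the ScrAβ42 group, ScrAbeta42_3448 stood above the other 6 for Postn (207 CPM, next 64.2), Tcf21 (9.55 CPM, next 5.97), Dcn (1231 CPM, next 658), Lum (95.5 CPM, next 48.6) and Tgfbr2 (105 CPM, next 71.7). These 9 marks come from 2 libraries and are not independent of each other.

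In the antibody study, 3D6 mouse 24 was low for Fap (0.426 CPM, next 1.59) and high for Tcf21 (7.11 CPM, next 5.43). Control mouse 22 was high for Dcn (525 CPM, next 390) and control mouse 15 was low for Itga1 (41.8 CPM, next 57.9). The cause of these values was not tested.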

How the results depend on the processing

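None of the 10 genes passed the test at an adjusted p under 0.05 in any alternative of either study (lowest adjusted p 0.549 with the peptides and 0.694 with the antibodies). In the peptide study DESeq2 called 12 genes where edgeR called 0, and leaving out 1 heart gave 0 to 3 genes called by edgeR (3 without Abeta42_3452, 1 without ScrAbeta42_3448). Genes at an unadjusted p under 0.05 in the peptide study numbered 780, against 1252 with the mitochondrial covariate, 1475 with no filter on low counts and 609 to 1266 leaving out each heart, and in the antibody study 444, against 1168 with no filter and 256 to 765 leaving out each heart. In the antibody study leaving out 1 heart brought a different gene of the 10 under that p by edgeR in different fits: Itga1 without control mouse 15, Tcf21 without control mouse 18, and Tgfb1 without control mouse 3 or 3D6 mouse 21. The peptide-study log2 fold changes kept their sign in 76 of 90 values from other settings. With the atrial score as a covariate they were -0.99 for Postn, -0.19 for Tcf21, -0.36 for Dcn, -0.62 for Lum, -0.31 for Fgfr1, -0.0071 for Tgfb1 and -0.22 for Tgfbr2. By limma-voom they were 0.0035 for Pdgfra, -0.0079 for Lum and -0.034 for Itga1. That of Pdgfra was 0.017 with the mitochondrial share as a covariate and 0.024 with total count scaling. Without both hearts high in Postn, an alternative chosen after seeing the data, it was 0.035 for Pdgfra and -0.024 for Lum. Leaving out each heart in turn gave -0.87 to 0.96 for Postn, -0.088 to 0.11 for Pdgfra, -0.12 to 0.26 for Dcn, -0.32 to 0.31 for Lum, -0.065 to 0.14 for Itga1, -0.13 to 0.31 for Fgfr1, -0.086 to 0.14 for Tgfbr2, 0.023 to 0.30 for Tcf21, 0.047 to 0.12 for Tgfb1 and -0.38 to -0.17 for Fap. For all but Itga1, Tgfb1 and Fap the ends came without Abeta42_3457 and without ScrAbeta42_3448. In the antibody study 87 of 89 values kept their sign, with Postn at -0.062 under the atrial covariate and Fgfr1 at 0.0094 under the mitochondrial covariate, and Fap could not be tested where at least 10 counts were asked of every heart. Leaving out each heart there gave -0.064 to 0.19 for Postn, -0.057 to 0.026 for Pdgfra, -0.091 to 0.0011 for Fgfr1, -0.28 to -0.0094 for Fap, -0.29 to -0.16 for Tcf21, -0.19 to -0.019 for Dcn, -0.17 to -0.072 for Lum, -0.20 to -0.10 for Itga1, -0.27 to -0.14 for Tgfb1 and -0.13 to -0.034 for Tgfbr2. The share of the most counted transcript, 3D6 minus control, ran from -0.31 to 3.84 points for Pdgfra, -1.40 to 1.15 for Dcn, -0.037 to 0.28 for Itga1, -1.12 to 7.50 for Fgfr1, -0.12 to 0.53 for Tgfb1, -4.34 to 1.33 for Tgfbr2, -24.6 to -9.34 for Fap, -6.87 to -0.40 for Postn and 1.72 to 4.69 for Tcf21. The cause of these shifts was not tested. No paired analysis was possible because no mouse number is shared between groups. Fap had the fewest counts, as few as 3 in a heart.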
